A study of Mus musculus with 8 samples.

Results

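A set of 10 genes of fatty acid handling were followed in single myocardial cells of the mouse heart tube: the fatty acid binding protein Fabp3, the long-chain acyl-CoA synthetases Acsl1, Acsl3, Acsl4 and Acsl5, the carnitine palmitoyltransferases Cpt1a and Cpt2, and the oxidation enzymes Acadm, Hadha and Hadhb. They were 10 of the 24327 genes that carried a symbol and a value in every cell, and they were read through all 14 array probes that bore their names. The set was picked for the signal of Acsl4, which was chosen by its loss in the mutant cells of these same arrays, so the Acsl4 values are given as a description only. Fabp3 and Acsl4, like Acaa1a, Acaa1b, Pfkm and Slc25a13 below, are also in gene lists that the study made from these arrays. The values of these genes are therefore no independent evidence of a direction. Further genes named below may be in those lists too.

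The cells came from embryos at embryonic day 8.5 with 9 somites. Each of the 8 arrays held the amplified cDNA of a single cell, 4 from Mesp1+/+ Sox17flox/flox embryos (WT) and 4 from Mesp1Cre/+ Sox17flox/flox embryos (KO). All cells therefore carried the floxed Sox17 alleles, the KO cells alone also carried the Cre allele at the Mesp1 locus, which is active in early mesoderm, and no group carried Cre without floxed Sox17. Genotypes were read from the embryo tail, not from the cell itself. Sox17 was not well above background in any of the 8 cells by either of its 2 probes, so it gave no check of the genotype.

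The labels name no embryo or litter for a cell. Each genotype was treated as 1 sample of cells, no test was made and no p-value is given, and an SD is the spread between 4 cells. The WT arrays shared 1 slide and the KO arrays a different one, which means that slide and genotype cannot be told apart. Probes well above background numbered between 10915 and 14468 per WT cell and between 9549 and 13545 per KO cell. Of 14 myocardial markers, 13 or 14 were detected in every cell. A WT cell held 2 to 4 of the 13 endothelial and endocardial markers, a KO cell 1 to 2, and their mean log2 level was 5.90 to 6.41 per WT cell and 5.89 to 6.28 per KO cell against a floor of 5.64. Kdr was the only one of them detected in all 8 cells, 7 of them were detected in no cell, and their part in the results below was not tested. At most 1 marker of the erythroid, endoderm or proepicardial lists and 1 or 2 neural crest markers were detected in any cell.

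Long-chain fatty acids enter a cell, are carried by binding proteins in the cytosol, and are joined to coenzyme A by the long-chain acyl-CoA synthetases before they can be used. The carnitine palmitoyltransferases then move the acyl group into the mitochondrion, where the acyl-CoA dehydrogenases and the trifunctional protein shorten it by repeated cycles of beta-oxidation. The adult heart draws most of its energy from this pathway, whereas the early embryonic heart relies largely on glycolysis. Acsl4 prefers arachidonic acid and other polyunsaturated fatty acids, which it directs mainly into membrane phospholipids.

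The values rest on probes of 60 bases, and stretches of 30 bases of 3 of them are shown here, for the genes called lower and higher and for the transferase detected in KO cells alone, 5′ to 3′ as the files give them, with the polyadenylation signal AATAAA in capitals where the stretch holds it. The Acsl4 stretch is the start of the only probe that reported this gene. The Fabp3 stretch is common to both of its probes, which share 51 of their 60 bases and are therefore not independent.
Acsl4: cacgattgtaggattgttccttagattttt
Cpt2: tgtttaaatagaAATAAAcccagtgttgct
Fabp3: tgctccaaggtcAATAAAgcagaaccaagg

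In mouse build mm9, per the files, the Acsl4 probe lies at chrX:138752591-138752650 on the minus strand and starts at base 5165 of its transcript. The Cpt2 probe lies at chr4:107576591-107576650 on the minus strand, and the first Fabp3 probe at chr4:129992643-129992702 on the plus strand. Exon and UTR annotation was not used here. AATAAA, searched on the strand given, was found in 4 of the 14 probes, the pair for Fabp3 and the Cpt2 probe shown among them, and in 10.1% of all 55681 probes on the array. With the reverse complement TTTATT included, 13.5% of all probes and the same 4 of the 14 held it. A match describes the letters of the probe and says nothing of how the transcript was cut.

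Signals are given below in arbitrary units after scaling of the arrays, with values under 50 set to 50, and detection of a gene means that its brightest probe stood well above background in the cell. Of the 10 genes, 9 were detected in at least 1 cell and 0 in all 8 cells. WT cells held 2, 7, 6 and 4 of the genes (cells 1 to 4), and KO cells held 3, 5, 4 and 5. This came to 19 of 40 gene and cell combinations in WT and 17 of 40 in KO. In the same cells, between 5066 and 7199 of all genes were detected in WT and between 4442 and 6325 in KO. In these amplified single-cell libraries a transcript that was absent and one that was lost in amplification cannot be told apart.

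**Figure D1:**
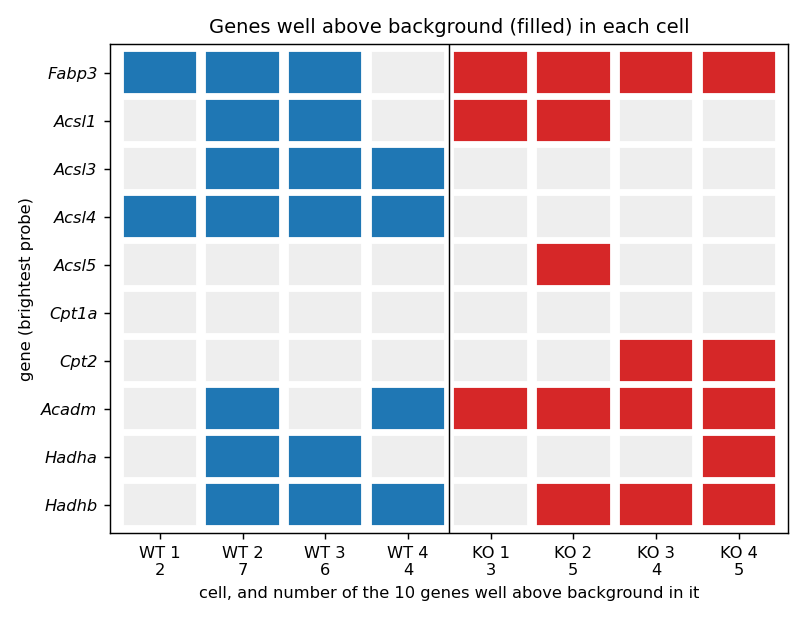
Detection of the 10 genes (rows) in the 4 WT and 4 KO cells (columns), with filled squares where the brightest probe was well above background and the number of genes detected under each cell. Acsl4 and Acsl3 are filled in WT cells and in 0 KO cells, Cpt2 in 2 KO cells and 0 WT cells, and Cpt1a in no cell.

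By step of the pathway, the 4 synthetases were detected in 9 of 16 combinations in WT cells and in 3 of 16 in KO cells, but Acsl4, chosen for its loss, made up 4 of the WT detections. Without Acsl4 the counts were 5 of 12 in WT and 3 of 12 in KO cells. Acsl3 was seen in 3 WT cells and 0 KO cells, Acsl1 in 2 cells of either genotype and Acsl5 in 1 KO cell. No synthetase was detected in KO cells 3 and 4, and Acsl4 was the only one detected in WT cell 1. Oxidation enzymes were detected in 7 of 12 combinations in WT and 8 of 12 in KO cells, and the carnitine transferases in 0 of 8 and 2 of 8.

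Acsl4 gave signals of 8478, 4422, 1552 and 574 in WT cells 1 to 4 and was at the floor in every KO cell. Before the floor was set, its KO signals lay between 1.31 and 3.07, and none was well above background. The groups did not overlap, although the WT cells alone spanned 14.8-fold. The mean log2 signal was 11.2 ± 1.71 in WT (SD, n = 4) and 5.64 in KO, a difference of -5.59. Since no KO cell was above background the fold is a bound, and Acsl4 was at least 48.1-fold lower in KO, where each KO array entered at its floored signal or, if higher, at the dimmest signal that counted as well above background on it.

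Calls across all genes used the study's rule of a difference of at least 5-fold (2.32 on the log2 scale), applied to the 3379 genes that were present, a term used here for detection in 4 of 4 cells of WT, of KO or of both. Of these, 10.8% were lower and 2.69% were higher in KO. The lowest WT cell was above the highest KO cell in 3.31%, and the lowest KO cell was above the highest WT cell in 2.52%. Only Acsl4, Fabp3 and Acadm among the 10 genes were present. Acsl4 was called lower and Fabp3 higher, each with groups that did not overlap, and Acadm was not called. With 3 genes that could be called, the shares cannot be read against the background.

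Acsl3, a synthetase found at the endoplasmic reticulum and on nascent lipid droplets, showed the same direction as Acsl4 at lower signal. Its probe gave 50, 157, 538 and 399 in WT cells 1 to 4 and the floor in all KO cells. It was well above background in WT cells 2, 3 and 4 and in no KO cell, and WT cell 1 coincided with the KO cells. The difference of means was -2.02 (WT SD 1.54, n = 4), which is 4.05-fold lower at the floored values. This fold is not a bound, since WT cell 1 was itself at the floor. Detection in at least 3 WT cells and 0 KO cells was found for 2.08% of the 12117 genes detected in any cell, and for Acsl3 and Acsl4 among the 9 members that were detected. The reverse, at least 3 KO cells and 0 WT cells, was found for 0.33% of genes and for 0 of the 9. Acsl4 entered the first count because it was chosen for its loss. With 9 genes, neither count can be read against the share of all genes. Acsl3 was not present by the rule above because of WT cell 1. With that cell left out it was past 5-fold as well, and 2 of the genes were called lower in place of 1.

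Acsl1, the main synthetase of the adult heart, was seen in 2 WT and 2 KO cells. Its probe at base 3723 of the transcript gave 50, 195, 3809 and 50 in WT cells and 11823, 1049, 50 and 50 in KO cells. The cells with high signal lay in both genotypes and the groups overlapped. The difference of 1.02 was smaller than the SD between WT cells (2.95) and between KO cells (3.82), and its sign turned when KO cell 1 was left out, to -0.53. A second Acsl1 probe, at base 2265, was not well above background in any cell. Acsl5, a synthetase abundant in the intestine, was detected in KO cell 2 alone, at 668, with the other 7 cells at the floor. At the floored values this gives 1.91-fold higher in KO from 1 of 4 cells, which is not a bound, since the other KO cells were at the floor.

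**Figure D2:**
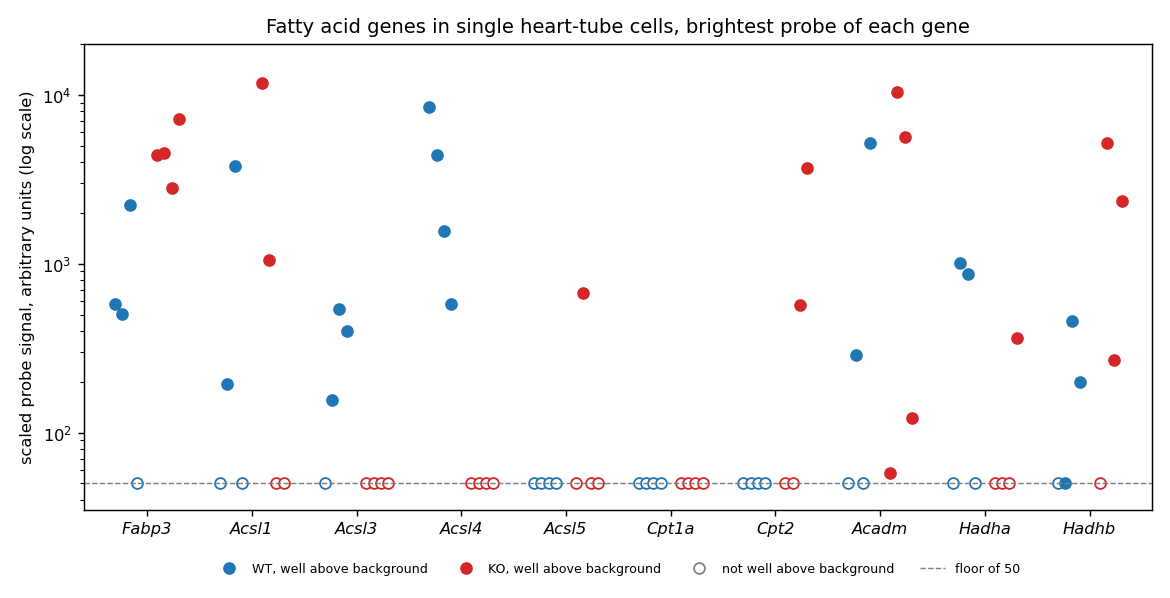
Scaled signal of the brightest probe of each gene (arbitrary units, log axis) in the 4 WT (blue) and 4 KO (red) cells, filled where well above background and open where not, with the floor of 50 dashed. The WT cells of Acsl4 lie between 574 and 8478 with all KO cells at the floor, the KO cells of Fabp3 lie above all WT cells, and the other genes overlap.

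Fabp3, the heart-type fatty acid binding protein that carries fatty acids through the cytosol of muscle cells, was detected in every KO cell. Its brighter probe gave 577, 507, 2236 and 50 across WT cells and 4431, 4541, 2803 and 7228 across KO cells, in the order 1 to 4. The groups did not overlap, the lowest KO cell being 1.25-fold above the highest WT cell, and WT cell 4 was not above background. The mean log2 signal was 8.73 ± 2.28 in WT and 12.1 ± 0.56 in KO (SD, n = 4), a difference of 3.40. The second probe, which shares most of its bases, gave 490, 415, 1777 and 50 in WT and 3645, 3927, 2269 and 6247 in KO cells, a difference of 3.36. WT cell 4, at the floor, weighed on this value, and without it the difference was 2.37, still past the 5-fold rule. The KO cells spanned 2.58-fold and the WT cells 44.7-fold.

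Transcripts of the carnitine palmitoyltransferases Cpt1a and Cpt2 were detected in few cells or none. Cpt1a, the liver-type carnitine palmitoyltransferase of the outer membrane, was not well above background in any cell by either of its 2 probes. The probe at base 3941 was printed in 10 spots, and its 80 spot signals over the 8 cells had a median of 2.23 and a highest value of 41.5. Cpt2, the transferase of the inner membrane, was detected in KO cell 3 at 571 and in KO cell 4 at 3673, and in no other cell. The difference of 2.43 equals 5.38-fold higher in KO at the floored values, from 2 of 4 cells. This fold is not a bound, since KO cells 1 and 2 were at the floor like the WT cells. The difference was 1.19 without KO cell 4, and 1.21 when both Cpt2 probes were averaged. Because neither genotype had it in all 4 cells, Cpt2 was not called. Its second probe, at base 909 in place of base 2286, was above background in KO cell 3 alone, at 43.0 before the floor.

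For Acsl1 and Cpt2 the probe nearer the transcript end was thus the one detected in more cells. Across 1683 transcripts with probes at least 1000 bases apart and at least 1 of them detected, the later probe was detected in more cells in 53.7%, which is 904 transcripts, and the earlier one in 649.

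Acadm, the medium-chain acyl-CoA dehydrogenase, catalyses the opening step of a beta-oxidation cycle. It gave 50, 288, 50 and 5162 across WT cells and 57.9, 10441, 5606 and 122 across KO cells, and was well above background in 2 WT and 4 KO cells. The groups overlapped, and each held high and low cells. The difference of 1.70 was smaller than the SD between cells, 3.16 in WT and 3.80 in KO. It passed 5-fold only when WT cell 4, KO cell 1 or KO cell 4 was left out, when the median over cells replaced the mean, or when no floor was set. The files place this probe on chromosome 11, whereas the gene table lists Acadm on another chromosome, and whether its signal came from Acadm transcripts was not tested.

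Hadha and Hadhb encode the alpha and beta subunits of the mitochondrial trifunctional protein, which carries out the later steps on long chains. Hadha gave 50, 1003, 867 and 50 in WT cells and 50, 50, 50 and 362 in KO cells, a difference of -1.40 with an SD of 2.44 in WT and 1.43 in KO. Hadhb gave 50, 50, 457 and 200 in WT cells and 50, 5195, 269 and 2360 in KO cells, a difference of 2.37 with an SD of 1.58 and 3.04. The groups overlapped for both subunits. Hadhb in WT cell 2 was above background at 42.1 but under the floor. The difference of Hadhb was past 5-fold in size, but each genotype held a cell without it, and it was not called unless KO cell 1 was left out or the presence filter was dropped. Both subunits were detected together in 3 cells, Hadhb alone in 3, Hadha alone in 0 and neither in 2. The cells with neither were WT cell 1 and KO cell 1.

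The other genes of the pathway were 96 in 9 lists, of which 95 had a value in every cell. Of the 95, 29 were not detected in any cell, 29 were measured, which required detection in 4 cells or more, and 15 were present. Of the 15 that could be called, 2 were lower and 0 higher by the 5-fold rule, beside 10.8% and 2.69% of all present genes. With 15 genes, these counts cannot be read as more or fewer than the background. Their median KO minus WT difference was 0.04, beside 0.00 over the 5369 genes measured on the whole array. The 5 measured members of the 10, with 1 chosen for its loss, had a median of 1.70. That value is the difference of Acadm, with an SD of 3.16 in WT and 3.80 in KO. The files place the Acadm probe on a chromosome other than that of the gene, so this median is of doubtful origin. The median ran from 0.97 without KO cell 2 to 3.20 without KO cell 1. Measured genes were picked again in each of these runs. Acsl1, detected in 4 cells, dropped out of both, so these medians differ in their genes as well as in their cells.

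The 2 genes called lower were Acaa1a and Acaa1b, the peroxisomal 3-ketoacyl-CoA thiolases. Acaa1a gave 6673, 9624, 6015 and 1809 in WT cells and 50, 50, 4989 and 50 in KO cells, a difference of -5.02. Acaa1b gave 1449, 2952, 1554 and 560 in WT cells and 50, 50, 1239 and 50 in KO cells, a difference of -3.64. For both genes, 3 of the 4 KO cells were at the floor, while KO cell 3 lay within the WT range, so that the groups overlapped. These genes are near-identical copies and may share signal on the array, so their values were not independent.

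Uptake and binding held 3 measured genes of 15, all present and none called. The brightest was Dbi, the acyl-CoA binding protein, which was detected in all 8 cells between 4157 and 13669 in WT and between 4148 and 26409 in KO cells, a difference of 0.71. Fabp5, a binding protein of epidermis and endothelium, lacked a value in KO cell 4, where its spot was an outlier. It gave 516, 11311, 50 and 1833 in WT cells and 2638, 13314 and 325 in KO cells 1 to 3, so the groups overlapped. The fatty acid translocase Cd36 was at the floor in all 8 cells, although above background in 1 WT cell.

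Among the other activating enzymes only Acsf2 was measured, an acyl-CoA synthetase of medium chains, detected in all 8 cells. Its signal was 182 to 494 in WT and 393 to 1646 in KO cells, with some overlap, and the difference was 1.09. The carnitine shuttle held 0 measured genes of 5. Its brightest, the muscle-type transferase Cpt1b, had 4141 in WT cell 1 and 1734 in KO cell 1 and the floor in the others.

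Of 14 further genes of mitochondrial beta-oxidation, 7 were measured, 2 were present and 0 were called. Their median was -0.21, with 4 differences below 0 and 3 above. Etfb, the beta subunit of the electron transfer flavoprotein, was the brightest, at 10990, 50, 11128 and 2129 in WT and 4543, 1306, 2940 and 420 in KO cells, a difference of -0.21. Acadvl, the very long-chain dehydrogenase, had the highest difference of these, 3.53, from KO cells 2 and 4 at 5315 and 8284 with the other 6 cells at the floor. It was well above background in 2 WT and 2 KO cells, the same number in either genotype. Echs1, the short-chain enoyl-CoA hydratase, had the lowest, -2.51, with 4327, 2695, 50 and 974 in WT and 50, 50, 4346 and 50 in KO cells. Neither was detected in all 4 cells of a genotype, so neither could be called. All 4 measured acyl-CoA thioesterases had differences below 0, with a median of -1.28, and 0 of them were called. Acot13, the brightest of them, gave -1.26 and was seen in 2 WT and 2 KO cells.

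The regulators held 6 measured genes of 13, 3 of them present and 0 called, with a median of 0.26. Ppara, a nuclear receptor that drives fatty acid oxidation genes, was detected in all 8 cells at 492, 206, 212 and 230 in WT and 452, 475, 507 and 427 in KO cells, a difference of 0.81. The groups overlapped through WT cell 1. Ppard, a receptor of the same family, was detected in all 8 cells as well and had the lowest difference of the list, -2.21, with 2199, 50, 606 and 50 in WT and 58.3, 50, 50 and 50 in KO cells, again with overlap. Esrra, a related receptor of mitochondrial genes and the brightest of this list, ran from 166 to 17033 in WT and from 50 to 14263 in KO cells, a difference of 0.19. Plin3 was the only measured lipid droplet gene, at -0.64. Of the genes that handle polyunsaturated phospholipids, the class of lipid that Acsl4 supplies, only Gpx4 was measured. Gpx4, which reduces lipid peroxides in membranes, was bright in every cell, at 11527 to 43266 in WT and 8169 to 18882 in KO, with overlapping groups and a difference of -0.39.

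**Figure D3:**
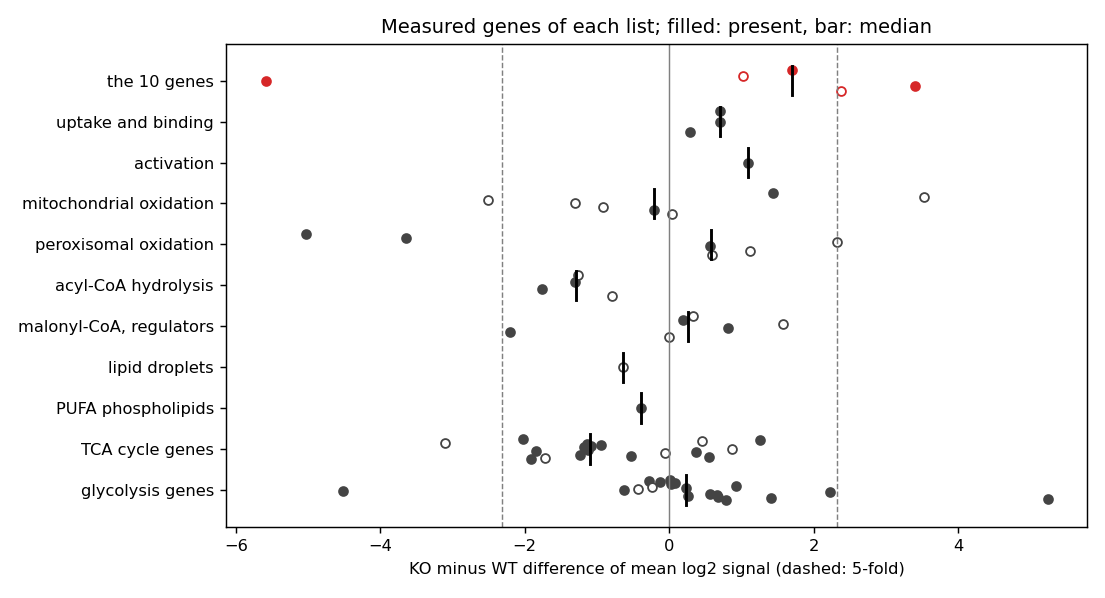
KO minus WT difference of mean log2 signal of each measured gene (points, filled where present) in the 10 genes (red) and in the lists beside them (black), with the list median as a bar, 5-fold differences dashed, and PUFA short for polyunsaturated fatty acid. Acsl4 and Fabp3 lie past the lines in opposite directions at -5.59 and 3.40, and most genes of the other lists lie between the lines.

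Energy genes outside the pathway were set beside these values. The TCA cycle genes, which take up the acetyl-CoA made by beta-oxidation, had a median of -1.10 over 18 measured genes, 13 below 0 and 5 above, with 0 of 13 present genes called. That median rested on KO cell 3, without which it was 0.14. The glycolysis genes had a median of 0.24 over 19 measured genes, 6 below 0 and 13 above, and moved to -0.11 when arrays were scaled on all probes. Of their 17 present genes 1 was called lower and 1 higher. These were Pfkm, the muscle phosphofructokinase, at -4.52, and Slc2a3, a glucose transporter, at 5.25, both named after their values were seen. Pfkm gave 1981 to 3733 in WT cells, and in KO cells 2150 in cell 4 with the other 3 at the floor. Slc2a3 gave 2663 to 13178 in KO cells, and in WT cells 3968 in cell 2 with the other 3 at the floor, so for both genes the groups overlapped.

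The genes most like Acsl4 over the 8 cells, by Pearson r of log2 signal among the 3378 other present genes, were Snapc4 (r = 0.99), Smim20 (r = 0.99), Slc25a13 (r = 0.98), Rrm2 (r = 0.98) and Ptpn1 (r = 0.98). Slc25a13 encodes a mitochondrial aspartate and glutamate carrier, and Rrm2 a subunit of ribonucleotide reductase. In each of the 5 the WT cells were at 384 or above and the KO cells were at the floor or, for Rrm2 in KO cell 3, at 55.4. Snapc4 was nevertheless well above background in 1 KO cell, and Rrm2 and Ptpn1 in 2 KO cells each. Smim20 and Slc25a13, like Acsl4, were above background in 0 KO cells. Slc25a13 gave 5614, 8745, 2099 and 1384 in WT cells, and Rrm2 gave 37800, 12208, 21302 and 1954. For these genes and for Acsl4, WT cell 4 was the lowest of the WT cells. In all, 37 genes reached an r above 0.9. The points share 8 arrays on 2 slides, and with the KO cells at the floor the correlation is set largely by the gap between the genotypes.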

How the data were processed

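Single-cell cDNA of 4 WT and 4 KO cells had been amplified by PCR, made into RNA with T3 polymerase, tagged with Cy3 and read on one-colour Agilent arrays with 60-base probes. The deposited files hold the intensity values of Agilent Feature Extraction 12.0.2.2 per the file headers, in arbitrary linear units: the background-corrected processed signal, and the mean and background signals used for an alternative. Deposited flags gave detection and outlier spots. The authors set values under 50 to 50 and scaled each array on its 50th percentile. Here outlier spots were left out (146 to 220 per array, 0 saturated), repeat spots of a probe were averaged as log2 signals, and each array was shifted by -0.76 to 0.68 so that its 50th percentile over the 5301 probes well above background on all 8 arrays equalled the mean over arrays. The floor of 50 was then set. Values at the floor have no order, and the number of arrays limits the precision. The probe with the highest mean log2 signal stood for its gene. Named were the 10 genes with every probe, every other pathway gene past 5-fold, the brightest gene of each list and the 5 genes most like Acsl4, and genes named beyond these were chosen after their values were seen. A result for 1 other pathway gene and 1 probe sequence are not reported here. The members and lists were chosen with earlier results of these data known. Symbols are those of the array (32469 probes, 24336 symbols). Pkm2 was matched to Pkm through the synonyms of a RefSeq table of another build, used for names only. Alternatives were another scaling, quantile normalization, normexp background correction (limma 3.58.1 in R 4.3.3, offset 50), no floor, medians over cells, all probes of a gene, other filters, a 10-fold rule, and each cell left out. The size rule was tested on simulated data.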

Additional observations from a re-analysis of the deposited data

Results flagged for a closer look

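Among the 14 groups of 4 cells in which the brightest probe of a gene varied, 2 held a cell set apart from the other 3 by Dixon's ratio. The usual chance rate of about 1 of 20 groups does not apply to cells tied at the floor, so the 2 groups cannot be set against it. Acsl5 was at 668.4 in KO cell 2 with the other KO cells at the floor of 50. Hadha was at 361.6 in KO cell 4, again with the other KO cells at the floor. In such groups the ratio registers a single cell in which the transcript was detected.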

How the results depend on the processing

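Acsl4 was called lower and Fabp3 higher under every alternative run except the demand for detection in all 8 cells. Under it 0 genes were called in either direction because none of the 10 was detected in all 8, and no median over measured members could be given. The Acsl4 difference of -5.59 became -10.1 without a floor, where KO signals near 1 enter the mean, and lay between -6.25 and -5.001 when each cell was left out. The count of genes called higher rose from 1 to 2 without a floor and with the median over cells, where Acadm was added, and to 3 without the presence filter, where Cpt2 and Hadhb were added. With each cell left out it ranged from 1 to 3: it was 2 without WT cell 4 and without KO cell 4 (Acadm added) and 3 without KO cell 1 (Acadm and Hadhb added). The count called lower ranged from 1 to 2 and was 2 without WT cell 1 (Acsl3 added). The median over those of the 10 genes that a setting counted as measured ran from 0.87 to 3.20, and the genes counted changed between settings. That of the other pathway genes ran from -0.39 to 0.36, so its sign is not settled. That of the TCA cycle genes turned from -1.10 to 0.14 without KO cell 3. The cause was not tested. Among single genes, Acsl3 went from -2.02 to -5.16, Cpt2 from 2.43 to 4.89 and Acadm from 1.70 to 4.23 without a floor. Quantile normalization moved the median over all present probes by 0.13 and normexp by 0.21 on the log2 scale, and the other scalings by -0.02. Signal over background limits every gene at the floor, where no order between cells can be read. No paired analysis was possible because the labels link no WT cell to a KO cell and replicate numbers only name cells.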
